A study of Mus musculus with 40 samples.

Results

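The step from 0.5% to 1% broccoli in the diet was examined in 20 of the 40 libraries of the series, the 10 labelled with 1% broccoli powder and the 10 labelled with 0.5%. The libraries were chosen by their treatment label. The choice was made with earlier results of these data known, and the gene fits left out libraries with few counts on a genome. All of them came from the cecal contents of C57BL/6 mice that began the Total Western Diet, which mimics human Western nutrient intake, at 3 weeks of age. The mice ate it for 6 weeks and then for 3 more weeks with the broccoli powder mixed in, so that both groups were 12 weeks old at collection and differed in the labels only by the broccoli percent. The remaining 20 libraries, at 0% and 2.5% broccoli, entered only where named. RNA was counted separately on the genomes of 6 bacteria, called here as deposited: F. rodentium, L.bacterium335, Acetatifactor, D. muris, X. muris and Alistipes. Nothing in the labels beyond separate samples says that the libraries came from separate mice, and the p-values measure the spread between these libraries.

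The cecum is the fermentation chamber of the mouse, where bacteria live on the plant material that the host leaves undigested. Broccoli brings pectins, cellulose and other cell wall polysaccharides, as well as sulphur-containing glucosinolates. Bacteria import small sugars through ABC transporters, in which a binding protein captures the sugar outside the membrane, a permease forms the channel and an ATPase drives the transport, or through the phosphotransferase system, which phosphorylates the sugar on entry.

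The lowest library held 253365 counts over the 6 genomes, the median library 764386 and the highest 5107249. A library was used for the genes of a genome only where it held at least 10000 counts on it, which kept all 20 for F. rodentium, L.bacterium335 and Acetatifactor, 9 at 0.5% and 10 at 1% for D. muris, and 7 and 10 for X. muris. On Alistipes the libraries held 61 to 1508 counts at 0.5% and 338 to 3479 at 1%, so its genes could not be tested. Counts on F. rodentium had a median of 780314 at 0.5% and 258912 at 1%, and the shallowest library, replicate 5 at 1%, had 26963. The library numbers in the titles ran from 76 upward for 4 of the 0.5% libraries and 1 of the 1% libraries, and with 1 library at 1% no comparison could be made within that series of numbers. No pair of the 90 within groups was identical.

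F. rodentium gave a smaller part of the counted RNA at 1% than at 0.5% broccoli, and Acetatifactor a larger part. The share of F. rodentium in the counts of the 6 genomes ran from 56.4% through a median of 78.3% to 95.6% at 0.5%, and from 3.48% through 54.2% to 84.4% at 1%. At 1% the libraries scattered far more widely than at 0.5%: 5 of the 10 lay below every 0.5% library, at 3.48% to 43.2% (replicates 1, 3, 4, 5 and 7), and the other 5 lay at 65.3% to 84.4%, inside the range of the 0.5% group. The mean was 76.1% ± 13.2 (SD, n = 10) at 0.5% and 46.1% ± 30.8 (SD, n = 10) at 1%, a difference of -29.97 percentage points (two-sided permutation test, p = 0.0119, adjusted over the 6 genomes by the Benjamini-Hochberg method p = 0.0356). The share is relative to the other genomes, and fewer F. rodentium cells cannot be told apart from less RNA per cell.

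Acetatifactor held 1.32% to 9.99% of the counts at 0.5%, with a median of 2.85%, and 2.60% to 28.7% at 1%, with a median of 9.96%. Of the 10 libraries at 1%, 5 lay above the highest 0.5% library. The mean rose from 4.07% ± 3.11 (SD, n = 10) to 11.4% ± 8.25 (SD, n = 10), by 7.28 percentage points (permutation test, adjusted p = 0.0356). When F. rodentium was left out of the total, the share of Acetatifactor differed by 1.46 percentage points (permutation test, adjusted p = 0.895), so the call was made only on the total that includes F. rodentium. Both calls were also lost without the libraries numbered 76 to 81 (differences of -32.2 and 8.21 percentage points, permutation test, adjusted p = 0.0663 each) and without any 1 of 9 libraries, replicates 1, 6, 7 and 10 at 0.5% and replicates 1, 3, 4, 5 and 7 at 1%, with adjusted p from 0.0514 to 0.0683.

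L.bacterium335 held 1.45% to 21.6% at 0.5% and 4.22% to 66.01% at 1%, where it was the most counted genome in replicates 3, 4, 5 and 7. Its mean was 11.2% ± 7.52 (SD, n = 10) and 28.2% ± 21.1 (SD, n = 10), a difference of 16.98 percentage points that missed the threshold (permutation test, adjusted p = 0.0562). It passed without any 1 of 7 libraries, replicates 2, 3, 5 and 9 at 0.5% and 6, 9 and 10 at 1%, with adjusted p from 0.0223 to 0.0486. Its highest value at 1% came from replicate 5, where F. rodentium had its lowest. The other 3 genomes had higher means at 1% without passing the test: D. muris 5.42% ± 4.54 and 8.14% ± 3.32 (adjusted p = 0.144), X. muris 3.11% ± 3.12 and 5.99% ± 3.75 (adjusted p = 0.0970), and Alistipes 0.0626% ± 0.0794 and 0.170% ± 0.170 (adjusted p = 0.0970; SD, n = 10 per group, permutation tests). Without replicate 2 at 0.5%, the X. muris difference was 3.73 percentage points and the Alistipes difference 0.130, both with an adjusted p of 0.0129 in the permutation test.

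**Figure D1:**
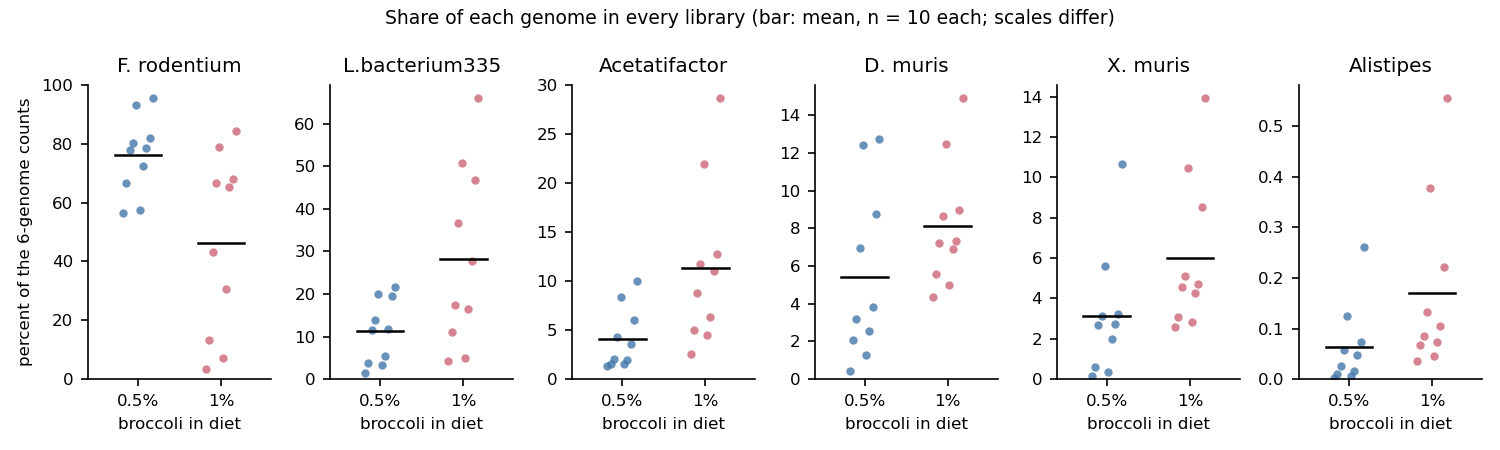
Percent of the counts on the 6 genomes that fell on each genome (vertical axis, scale differing by panel) in the 0.5% and 1% broccoli libraries; each point is a library and the bar is the mean of 10. At 1% the F. rodentium points run from 3.48% to 84.4%, with 5 of 10 below the lowest 0.5% library, and 5 of the 10 Acetatifactor points lie above the highest 0.5% library.

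Within F. rodentium, mglB and mglC, of the 3 genes of a galactose-type sugar uptake system, fell between the 2 diets. Of 1634 tested features, 9 passed an adjusted p of 0.05 (0.551%; quasi-likelihood test of edgeR, Benjamini-Hochberg adjusted), 3 higher at 1% (0.184%) and 6 lower (0.367%). The symbol-bearing ones were mglB, mglC, fliY and deaD, all lower, and trxA_3, higher. At an unadjusted p under 0.05 there were 197 features (12.1%), 100 higher (6.12%) and 97 lower (5.94%), and DESeq2 called 53, of which 38 were higher and 15 lower. Gene levels below are in CPM, which relates the counts of a gene to the TMM-scaled total of its library on that genome, and log2 fold changes are 1% over 0.5% with their standard errors.

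The gene mglB encodes the sugar-binding protein of the Mgl system, which imports galactose, glucose and methyl-galactosides. It ran from 256 through a median of 707 to 1695 CPM at 0.5%, from 6335 counts over the group, and from 31.04 through 89.99 to 135 CPM at 1%, from 328 counts. The groups did not overlap: every 1% library lay below every 0.5% library, and mglB was the only one of the 1634 features for which that held in either direction. The log2 fold change was -3.27 ± 0.38 (edgeR, adjusted p = 4.73e-06).

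Of its 2 partner genes, mglC fell too. The permease gene mglC ran from 20.5 through 129 to 302 CPM at 0.5% and from 0 through 31.5 to 62.1 CPM at 1%, with 4 of the 10 libraries at 1% below the lowest at 0.5% and none above the highest (log2 fold change -2.45 ± 0.40, edgeR, adjusted p = 0.00136). The ATPase gene mglA, added to the account after its value was seen, ran from 30.8 through 94.5 to 240 CPM at 0.5% and from 0 through 23.5 to 107 CPM at 1%. Its log2 fold change of -1.77 ± 0.45 missed the threshold (edgeR, adjusted p = 0.0698), and it passed without replicate 5 or 10 at 0.5% or replicate 1 at 1%.

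The mglB level at 1% was low both where F. rodentium dominated a library and where it was scarce. Replicate 6, with 84.4% of its counts on F. rodentium, had 51 counts of mglB or 38.5 CPM, and replicate 5, with 3.48%, had 1 count or 31.04 CPM. The part of depth or of F. rodentium abundance in the level of mglB was not tested beyond a fit with the library total as a covariate. Across the 31 alternative settings run, the log2 fold change of mglB lay between -3.42 and -3.07 and its adjusted p never rose above 0.000169. The value nearest the threshold came without the libraries numbered 76 to 81, where mglB was the single feature called in F. rodentium (log2 fold change -3.15) and mglC was at -2.24 (edgeR, adjusted p = 0.0657).

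Among the other listed ABC importer genes of F. rodentium none was called. The called gene fliY was listed as flagellar and not counted here, though its symbol is also used for a cystine-binding protein. Of 31 listed uptake genes for sugars, peptides and amino acids, 26 were tested and 2 were called, mglB and mglC, both lower. The list had a median log2 fold change of -0.20, against -0.06 over all 1634 tested features, and 7 of the 26 lay above 0. Outside the Mgl genes, 1 more was lower at an unadjusted p under 0.05, lnpD_2 (log2 fold change -1.20 ± 0.36, edgeR, adjusted p = 0.130). Its copy lnpD_1 was the 1 that was higher (0.42 ± 0.14, edgeR, adjusted p = 0.178). The lnpD symbol names an epimerase of lacto-N-biose use rather than an uptake gene. Both copies are nevertheless included in the counts and the median of the list. Symbols ending in a number, such as lnpD_2, mark copies within a family, and these values are uncertain because the way reads were divided between copies is not known.

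The phosphotransferase genes held no call among 14 tested, with a median log2 fold change of -0.09. The mannitol operon activator mtlR had the largest difference, with a median of 25.6 CPM at 0.5% and of 0 CPM at 1% (log2 fold change -2.47 ± 0.70, edgeR, adjusted p = 0.0990). The general carrier gene ptsH was at median levels of 1301 and 975 CPM (-0.46 ± 0.18, edgeR, adjusted p = 0.219). The gene hpr, listed with these by its symbol alone and of unchecked function, was at 61.7 and 139 CPM (1.10 ± 0.38, adjusted p = 0.178). The mannose-type permease gene manZ_2, the most abundant tested member, was at 12655 and 10831 CPM (-0.38 ± 0.18, adjusted p = 0.362). None of the 16 tested genes for arabinose, galactan, rhamnose, fucose and xylose use and none of the 13 for beta-glucosides was called, with list medians of -0.23 and -0.34.

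Both other symbol-bearing genes that fell were expressed at low levels. The gene fliY is a flagellar motor switch symbol that is also used for a cystine-binding protein, and it was the single flagellar symbol in this genome. It ran from 22.4 through 42.4 to 64.7 CPM at 0.5% and from 0 through 8.47 to 25.7 CPM at 1%, and 9 of the 10 libraries at 1% lay below the lowest at 0.5% (log2 fold change -1.96 ± 0.39, edgeR, adjusted p = 0.0141). Its 4 libraries at 0 were replicates 1, 4, 5 and 7 of the 1% group, the shallowest on F. rodentium, where 1 count was worth up to 31.04 CPM. The fliY call was lost in DESeq2. Without the libraries numbered 76 to 81, fliY was not among the tested features. The DEAD-box RNA helicase gene deaD, below the median level that the naming rule asks for and named after its value was seen, ran from 39.7 through 67.6 to 92.7 CPM at 0.5% and from 0 through 11.97 to 155 CPM at 1% (-2.29 ± 0.50, adjusted p = 0.0235). The value of 155 CPM, above every 0.5% library, came from 5 counts in replicate 5, and 8 of the 10 libraries at 1% lay below the lowest at 0.5%. The deaD call was lost without any 1 of replicates 4 and 6 at 0.5% and 2, 8 and 10 at 1%, without the libraries numbered 76 to 81, with the number series as a term, in DESeq2 and with all 4 diets in the fit (log2 fold change -2.20, edgeR, adjusted p = 0.164).

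**Figure D2:**
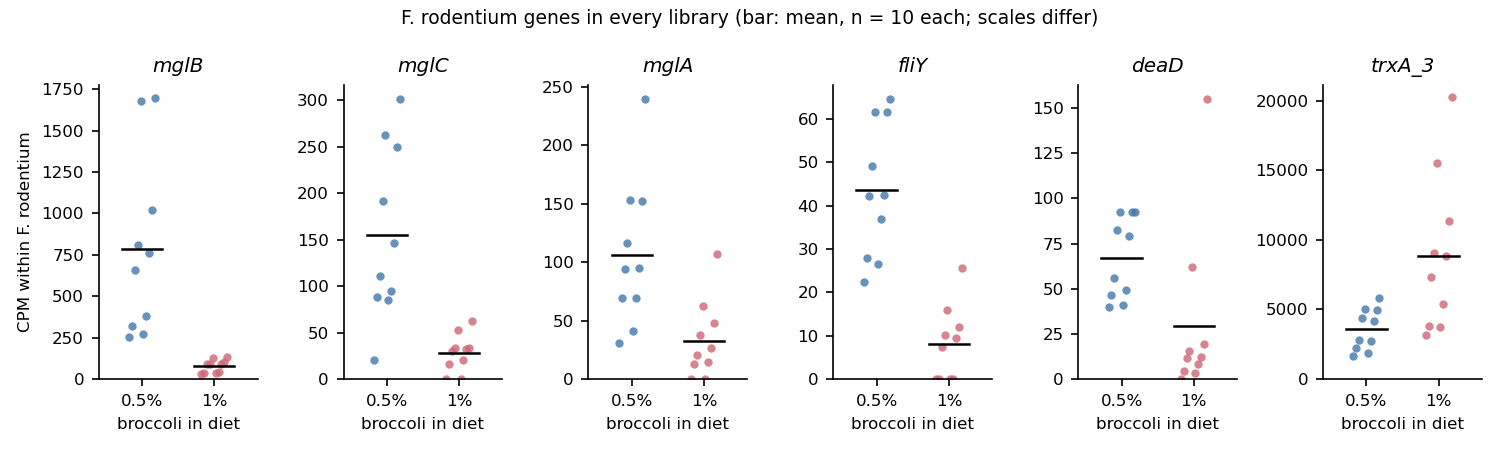
Level in CPM within F. rodentium (vertical axis, linear, scale differing by panel) of the 5 called genes with a symbol and of mglA at 0.5% and 1% broccoli; each point is a library and the bar is the mean of 10. The mglB points at 1% lie at 31.04 to 135 CPM, below all 0.5% points at 256 to 1695 CPM, and the trxA_3 points at 1% reach 20239 CPM against 5841 CPM at 0.5%.

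Thioredoxin and peroxide defence genes of F. rodentium stood mostly higher at 1%, with 1 of them called. The called gene was trxA_3, a thioredoxin, the small protein that keeps cysteines reduced. It ran from 1681 through 3487 to 5841 CPM at 0.5% and from 3147 through 8085 to 20239 CPM at 1%, where 6 of 10 libraries lay above the highest at 0.5% and the ranges overlapped (log2 fold change 1.30 ± 0.31, edgeR, adjusted p = 0.0499). The call sat at the threshold and was lost in at least 19 of the 31 alternative settings, 13 of them leaving out a single library. With the library total on F. rodentium as a covariate the log2 fold change was 0.78 (edgeR, adjusted p = 0.752). In that fit 43 of the 1634 features were higher at an unadjusted p under 0.05, against 100 without the covariate. None of the features called in it was higher at 1%. The other defence genes and the chaperone genes below are given without this covariate.

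All 10 listed genes of thioredoxin and peroxide defence were tested, and 9 had log2 fold changes above 0, with a median of 0.59 against -0.06 for all tested features. An unadjusted p under 0.05, with the 1% group higher, was reached by 5 of the 10, against 6.12% of all features. The others of these 5 were the thioredoxin reductase gene trxB, which recharges thioredoxin (log2 fold change 0.61 ± 0.18, edgeR, adjusted p = 0.129), the thioredoxin copy trxA_1 (0.72 ± 0.26, adjusted p = 0.202), the superoxide reductase gene dfx (0.73 ± 0.29, adjusted p = 0.252) and the methionine sulfoxide reductase gene msrA (0.36 ± 0.17, adjusted p = 0.414). In trxB, the values ran from 387 through 609 to 780 CPM at 0.5% and from 559 through 879 to 1516 CPM at 1%. The electron carrier gene rub was the single member below 0 (-0.26 ± 0.37). These genes and those of the next groups that the naming rule did not give were picked after their values were seen.

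Chaperone genes showed a like pattern without a call by edgeR, though DESeq2 called dnaK. Of 14 tested chaperone and protease genes, 10 lay above 0, the median log2 fold change was 0.21, and 5 were higher at an unadjusted p under 0.05. The chaperone gene dnaK, which refolds proteins and was among the 5 most counted symbols of F. rodentium, ran from 8429 through 17220 to 27708 CPM at 0.5% and from 15366 through 30382 to 85443 CPM at 1%. At 1%, 6 of 10 libraries lay above the 0.5% range (log2 fold change 0.94 ± 0.28, edgeR, adjusted p = 0.129). Its nucleotide exchange factor gene grpE was at 0.94 ± 0.29 (adjusted p = 0.149), the heat-shock repressor gene hrcA at 0.79 ± 0.27 (0.178), the redox-switched chaperone gene hslO at 0.65 ± 0.22 (0.178) and the disaggregase gene clpB at 0.46 ± 0.22 (0.414). The cochaperone gene dnaJ (-0.33 ± 0.19, adjusted p = 0.567) and the chaperonin gene groL (0.24 ± 0.17, adjusted p = 0.665) lay apart from them.

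The 1% libraries with the highest trxA_3 were not those with the most F. rodentium RNA. Replicates 1, 4 and 5, at 20239, 15518 and 11362 CPM, had 43.2%, 7.14% and 3.48% of their counts on F. rodentium. Replicates 6, 10 and 8, at 3147, 3758 and 3804 CPM, had 84.4%, 79.1% and 68.2%. The libraries between them did not keep to this order. Replicates 7, 2, 9 and 3, at 9044, 8863, 7306 and 5360 CPM, had 13.1%, 66.9%, 65.3% and 30.5%. At 0.5%, replicate 10 had both the highest trxA_3 level, 5841 CPM, and the highest share of F. rodentium, 95.6%. The part of depth or of F. rodentium abundance in the level of trxA_3 was not tested beyond the covariate above.

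Further genes came near the threshold with the 1% group higher. The bile salt hydrolase gene cbh_1, which cleaves conjugated bile acids, was at a median of 280 CPM at 0.5% and 502 CPM at 1%, with 6 of 10 libraries above the 0.5% range (log2 fold change 0.78 ± 0.22, edgeR, adjusted p = 0.0990). The deoxyribose-phosphate aldolase gene deoC, which breaks down deoxynucleosides, was at 182 and 433 CPM (1.47 ± 0.39, adjusted p = 0.0853), and the antiporter gene gerN at 314 and 504 CPM (0.68 ± 0.18, adjusted p = 0.0853). DESeq2 called cbh_1 and deoC, and edgeR called deoC without replicate 6 at 1%. The phosphatase gene yitU_2 was at 1445 and 2452 CPM with 8 of 10 libraries above the 0.5% range (0.71 ± 0.18, adjusted p = 0.0698), and passed with RLE scaling (adjusted p = 0.0373). Of the 4 called features without a symbol, gene:ENSB:f9ceGArSypMPrOm had the largest rise, from a median of 771 to 2027 CPM (1.56 ± 0.32, adjusted p = 0.0164), and gene:ENSB:vzcduYxB1sBBAGO the largest fall, from 59.2 to 16.3 CPM (-1.70 ± 0.35, adjusted p = 0.0164). The first call was lost with the library total as a covariate (1.17, edgeR, adjusted p = 0.428), with the number series as a term (adjusted p = 0.0889) and without the libraries numbered 76 to 81 (adjusted p = 0.0835), and the call of gene:ENSB:vzcduYxB1sBBAGO with all 4 diets in the fit (adjusted p = 0.171) and without those libraries (adjusted p = 0.128). DESeq2 kept 5 of the 9 calls in F. rodentium, and whether these features were among them is not given here.

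Several further gene lists of F. rodentium held no call, and whether their levels were alike between the diets was not tested. None of the 45 tested ribosomal protein genes was called (median log2 fold change -0.12, from -0.56 to 0.22), nor any of the 19 of glycolysis (median -0.12), the 9 of the butyrate pathway (-0.10), the 9 of glycogen (-0.07) or the 38 of nucleotide synthesis (-0.14). The most counted symbol, gap of glycolysis, was at a median of 63312 CPM at 0.5% and 57848 CPM at 1% (-0.08 ± 0.16, edgeR, adjusted p = 0.919). All 8 ATP synthase genes lay above 0, with a median of 0.13 and none called. Amino acid synthesis lay mostly below 0 without a call, with 7 of 51 genes above 0 (median -0.24), 1 of 8 for the branched-chain acids (-0.28) and 2 of 12 for tryptophan and its precursors (-0.34).

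**Figure D3:**
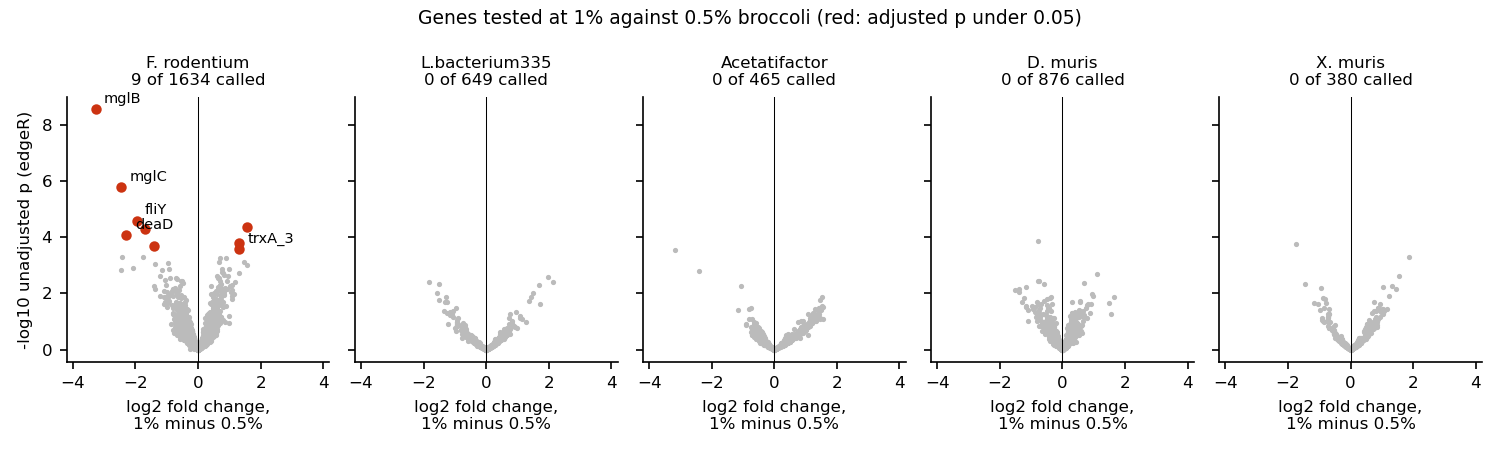
Log2 fold change at 1% over 0.5% broccoli (horizontal axis) against minus log10 of the unadjusted edgeR p (vertical axis) for each tested feature of 5 genomes; red points have an adjusted p under 0.05. F. rodentium has 9 called features of 1634, with mglB farthest out at a log2 fold change of -3.27, and the other 4 genomes have 0.

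The symbol-bearing called genes and mglA were also measured at 0% and 2.5% broccoli. The values in this paragraph come from a fit over all 4 diets, chosen after the calls had been seen, with 10 libraries at 0% and 8 at 2.5% holding enough F. rodentium counts. The median of mglB was 26.97 CPM at 0%, 694 at 0.5%, 90.97 at 1% and 160 at 2.5%, highest at the lowest dose of broccoli. In the same order, mglC was at 12.8, 123, 31.96 and 114 CPM, mglA at 11.6, 92.3, 24.3 and 38.8 CPM, and deaD at 3.59, 69.7, 12.2 and 42.5 CPM. The gene fliY did not share the low level at 0%, with medians of 31.6, 43.4, 8.60 and 21.7 CPM, and its log2 fold change of 0.5% over 0% was 0.60 ± 0.37 (edgeR, adjusted p = 0.368). At 1%, mglB had a log2 fold change of 1.33 ± 0.39 over 0% (edgeR, adjusted p = 0.150), and at 2.5% one of 1.08 ± 0.41 over 1% (adjusted p = 0.216). The thioredoxin gene trxA_3 was lowest at 0.5%, with medians of 6335, 3473, 8192 and 5199 CPM, and had a log2 fold change of 0.19 ± 0.34 at 1% over 0% (edgeR, adjusted p = 0.898). These comparisons share groups with the step from 0.5% to 1% and are not independent of it: in this fit the log2 fold change of 0.5% over 0% was 4.59 ± 0.38 for mglB (edgeR, adjusted p = 2.87e-12) and -1.13 ± 0.34 for trxA_3 (adjusted p = 0.0303), which at 1% over 0.5% was at 1.32 (adjusted p = 0.0631).

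In L.bacterium335, 0 of 649 tested features were called by edgeR (0%), with 20 at an unadjusted p under 0.05 (3.08%), 8 higher (1.23%) and 12 lower (1.85%), and 2 called by DESeq2. The largest positive fold changes among named genes were in sugar uptake and use, and none passed. The permease gene ngcF_1 of an N-acetylglucosamine uptake system was at a median of 108 CPM at 0.5% and 277 CPM at 1%, with 5 of 10 libraries above the 0.5% range (log2 fold change 1.99 ± 0.61, adjusted p = 0.657). The gene lacG, a symbol used for a lactose permease and for a glycosidase, was at 63.03 and 218 CPM (2.14 ± 0.69) and the N-acetylhexosamine kinase gene nahK at 283 and 631 CPM (1.69 ± 0.56), both with an adjusted p of 0.657. The mglB_1 gene of this bacterium, its most counted sugar-binding protein, was at 20342 and 21686 CPM (0.45 ± 0.42, adjusted p = 0.997), beside -3.27 for mglB of F. rodentium, and the difference between the 2 bacteria was not tested. Its flagellar cap gene fliD was at 4223 and 4952 CPM (-0.10 ± 0.48, adjusted p = 0.997, and 0.07 with RLE scaling).

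Of the groups in L.bacterium335, 12 of 14 ABC uptake genes lay above 0 (median log2 fold change 0.37), as did 10 of 11 chaperone and protease genes (0.40) and all 5 butyrate pathway genes (0.43). The median over all 649 features was -0.07, with 44.4% above 0. Flagella and chemotaxis had 5 of 17 above 0 (-0.13) and ribosomal proteins 4 of 19 (-0.23). With RLE in place of TMM scaling the median of all features was 0.10, with 60.2% above 0, and the flagellar median turned to 0.04.

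Acetatifactor had 0 called features of 465 (0%), 17 at an unadjusted p under 0.05 (3.66%), 11 higher (2.37%) and 6 lower (1.29%), and 1 called by DESeq2. Of its 96 tested genes on the lists, 88 had log2 fold changes above 0 and 70 lay above the median of all its tested features, without a call. The median log2 fold change was 1.34 for 6 ABC uptake genes, 1.31 for 3 ATP synthase genes, 1.16 for 5 ribosomal protein genes, 0.84 for 8 glycolytic genes, 0.73 for 7 flagellar genes and 0.65 for 8 glycogen genes, against 0.36 over all 465 features, 70.5% of which lay above 0. Recombination and repair (12 genes, median 0.11) and two-component regulators (7 genes, median 0.30) lay below that median. RLE scaling put the genome median at 0.65 and these lists at 1.06 to 1.70, while a library minimum of 50000 counts, which kept 3 libraries at 0.5% and 7 at 1%, put the genome median at 0.08 with 54.7% above 0. The smallest adjusted p among the members of any list was 0.734. The calls that arose in alternatives, named after they were seen, were mostly lower at 1%. The DESeq2 call was LHPMNMPM_00009, lower at 1%. LHPMNMPM_00009 and LHPMNMPM_00288 were both called lower with all 4 diets in the fit (edgeR, smallest adjusted p = 0.0181). Both were also called lower without the libraries numbered 76 to 81 (edgeR, smallest adjusted p = 0.0119).

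Single genes of Acetatifactor overlapped between the groups. The flagellar rod gene flgG_2 ran from 0 through 207 to 473 CPM at 0.5% and from 383 through 516 to 1166 CPM at 1%, with 8 of 10 libraries at 1% above the 0.5% range (log2 fold change 1.46 ± 0.58, edgeR, adjusted p = 0.734). The translocase gene secY_2 was at 458 and 1331 CPM (1.53 ± 0.58) and the fucose isomerase gene fucI at 416 and 1660 CPM (1.18 ± 0.67), both with an adjusted p of 0.734. The sugar-binding gene agpA was at 1907 and 7173 CPM (1.44 ± 0.79, adjusted p = 0.734), and the transport ATPase gene msmX was at 8605 and 8455 CPM (0.02 ± 0.31, adjusted p = 0.978). Of the 12 recombination and repair genes 9 lay above 0, and those below included xerC_20 at 2963 and 1887 CPM (-0.80 ± 0.44) and xerC_13 at 2011 and 1285 CPM (-0.57 ± 0.35), both with an adjusted p of 0.734. Several 0.5% libraries had no count of genes such as rpsH and fucI, and 1 count there was worth up to 96.03 CPM.

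**Figure D4:**
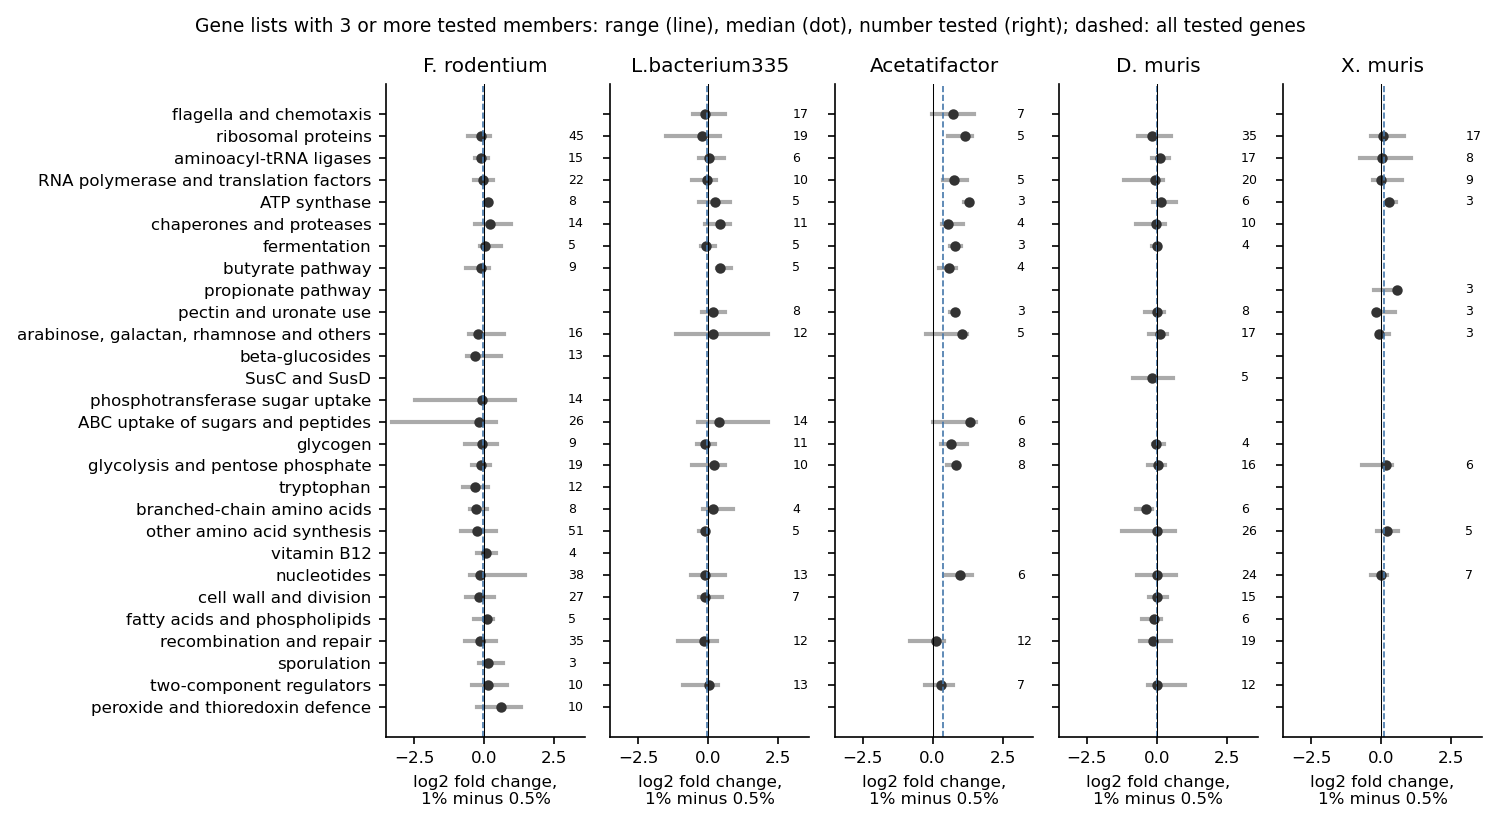
Log2 fold change at 1% over 0.5% broccoli (horizontal axis) for gene lists with 3 or more tested members, by genome; the grey line spans the members, the dot is their median, the number at the right is how many were tested, and the dashed line is the median of all tested features. In Acetatifactor the dots lie mostly to the right of a genome median of 0.36, and in F. rodentium thioredoxin and peroxide defence lies at 0.59 against -0.06.

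D. muris had 0 called features of 876 (0%), 52 at an unadjusted p under 0.05 (5.94%), 19 higher (2.17%) and 33 lower (3.77%), and 0 by DESeq2. Its starch uptake gene susC_2, an outer membrane receptor, was at a median of 4351 CPM at 0.5% and 6889 CPM at 1% (log2 fold change 0.57 ± 0.23, edgeR, adjusted p = 0.718). It was the highest of 5 tested SusC and SusD list members, 2 of which lay above 0, with a list median of -0.16 and a lowest value of -0.83. The ATP synthase gene atpB was at 862 and 1306 CPM (0.68 ± 0.22), the antitermination factor gene nusA at 1080 and 665 CPM (-0.75 ± 0.24) and the tRNA-modifying gene tgt at 148 and 335 CPM (1.11 ± 0.32), each with an adjusted p of 0.696. Of 35 ribosomal protein genes 8 lay above 0 (median -0.17), and of the 6 branched-chain amino acid genes none did (-0.39), against a median of -0.01 over all features. Without the libraries numbered 76 to 81 the branched-chain median was -0.05. The xylose isomerase gene xylA, among its most counted symbols, was at 6808 and 7678 CPM (0.24 ± 0.13, adjusted p = 0.816).

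X. muris had 0 called features of 380 (0%), with 7 libraries at 0.5% and 10 at 1%, 30 features at an unadjusted p under 0.05 (7.89%), 19 higher (5%) and 11 lower (2.89%), and 0 called by DESeq2. The mobilisation gene mobV_1, of plasmid transfer, was at a median of 1061 CPM at 0.5% and 743 CPM at 1% (log2 fold change -0.89 ± 0.36, edgeR, adjusted p = 0.553). It passed with the library minimum raised to 50000 counts, which kept 3 libraries at 0.5% and 5 at 1% (-2.08, edgeR, adjusted p = 0.0162). The tRNA ligase gene cysS was at 185 and 274 CPM (1.07 ± 0.52, adjusted p = 0.585), and the phosphoenolpyruvate carboxykinase gene pckA at 991 and 563 CPM (-0.67 ± 0.35, adjusted p = 0.614). The 17 ribosomal protein genes had a median log2 fold change of 0.06, against 0.10 over all features, and of -0.10 without the libraries numbered 76 to 81. The feature HPS56_RS08410, picked after its values were seen as the 1 of 380 without overlap between the groups, ran from 0 to 178 CPM at 0.5% and from 248 to 821 CPM at 1% (1.88 ± 0.53, edgeR, adjusted p = 0.0955), and its 31 counts at 0.5% came from 4 of the 7 libraries. At 0.5%, 1 count on X. muris was worth a median of 59.4 CPM and up to 226 CPM, so the lack of overlap lay near the floor. The smallest adjusted p belonged to HPS56_RS05275, also picked afterwards, at a median of 1009 CPM at 0.5% and 244 CPM at 1% (-1.74 ± 0.45, edgeR, adjusted p = 0.0665), which passed in 8 alternatives: without any 1 of replicates 2, 3 and 8 at 0.5% and 1, 5 and 6 at 1%, with no library minimum and with the library total as a covariate.

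How widely the RNA of each bacterium was spread over its genes was measured as the number of features expected in 10000 counts, an expected value at equal depth. Acetatifactor had 434 through a median of 1097 to 1805 features at 0.5% and 1048 through 1428 to 1641 at 1%, the low end of the 0.5% group having no match at 1%. Its mean was 1054 ± 452 (SD, n = 10) and 1403 ± 202 (SD, n = 10) (permutation test, adjusted over 5 genomes p = 0.161), and without replicate 8 at 0.5% the difference was 433 features (permutation test, adjusted p = 0.0330). X. muris had 156 through 650 to 1222 features at 0.5% and 550 through 965 to 1256 at 1%, with means of 689 ± 365 (SD, n = 7) and 973 ± 211 (SD, n = 10) (exact permutation test, adjusted p = 0.161). Without its replicate 8 at 0.5%, this difference was 372 features (exact permutation test, adjusted p = 0.0381).

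The other 3 genomes showed no shift that passed the test. In L.bacterium335 the 1% libraries fell on both sides of the 0.5% range of 844 to 1465 features, 5 above it and 4 below it, with means of 1131 ± 215 (SD, n = 10) and 1233 ± 397 (SD, n = 10) (permutation test, adjusted p = 0.595). F. rodentium had 1152 ± 81.3 and 1121 ± 47.002 features (permutation test, adjusted p = 0.537), and D. muris 1380 ± 97.6 (n = 9) and 1365 ± 52.9 (exact permutation test, adjusted p = 0.683). The percent of counts on the 5 most counted features was likewise compared, without a call: it was 77.9% ± 16.7 (SD, n = 7) and 64.2% ± 11.5 (SD, n = 10) in X. muris (exact permutation test, adjusted p = 0.325), and -18.5 percentage points apart without replicate 8 at 0.5% (exact permutation test, adjusted p = 0.04995). It was 49.7% ± 10.3 and 41.997% ± 18.3 in L.bacterium335, 42.8% ± 10.7 and 37.3% ± 9.31 in Acetatifactor, and 18.2% ± 2.46 and 17.2% ± 1.61 in F. rodentium (SD, n = 10 per group, permutation tests, adjusted p = 0.385 each). In D. muris it was 6.75% ± 0.537 (SD, n = 9) and 7.06% ± 0.924 (SD, n = 10) (exact permutation test, adjusted p = 0.421), the lowest concentration of the 5 genomes.

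**Figure D5:**
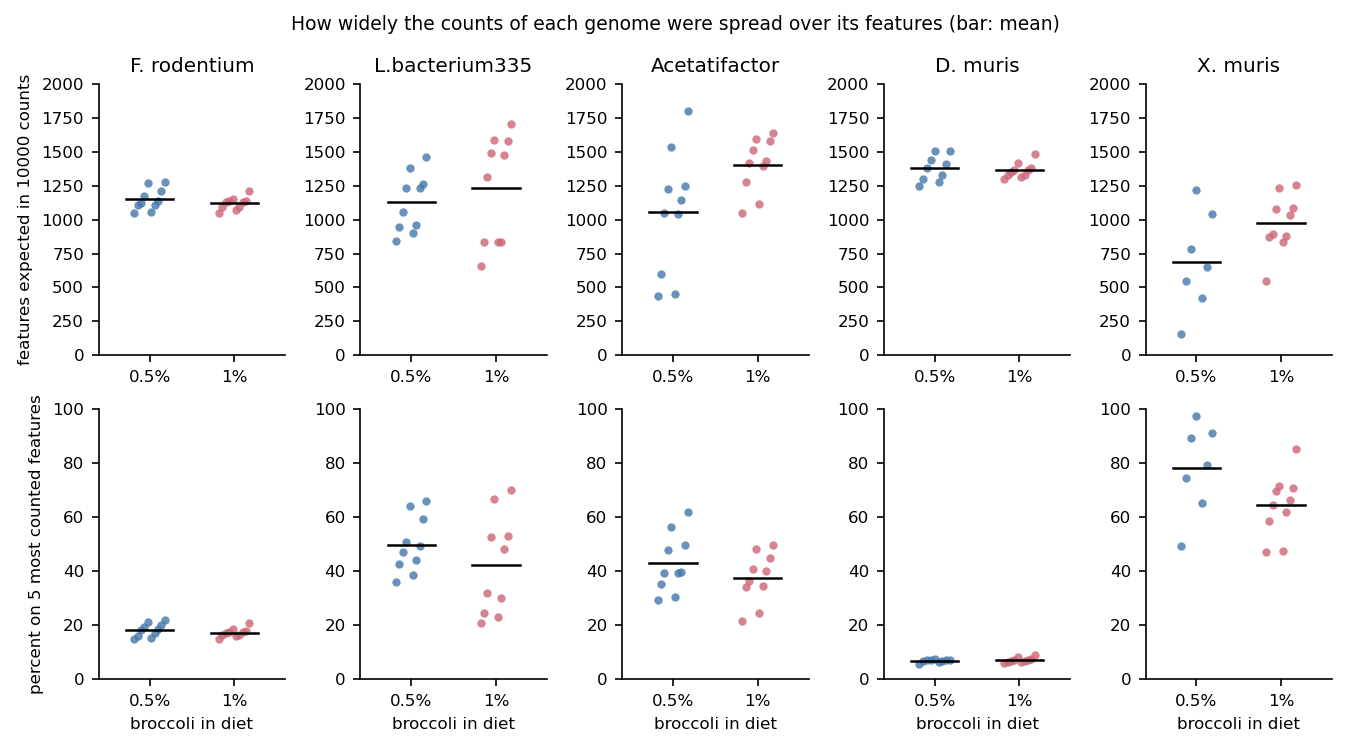
Features expected in 10000 counts (upper row) and percent of the counts on the 5 most counted features (lower row) for each genome in the 0.5% and 1% broccoli libraries; each point is a library and the bar is the mean. Acetatifactor has 3 libraries at 0.5% under 600 features and none at 1% under 1048, and the 1% points of L.bacterium335 lie above and below the 0.5% points.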

How the data were processed

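Counts per feature were deposited by the authors in 6 tables, 1 per bacterial genome, as whole numbers with no normalization. Per the labels' protocols, RNA of cecal contents was depleted of ribosomal RNA and made into libraries with the KAPA RNA HyperPrep kit. The sources used here do not name the aligner, the counting program or the genome builds, nor how reads shared by genomes or gene copies were counted. Groups were read from the treatment label, and replicates were numbered in accession order.

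Each genome was fitted alone with edgeR 4.0.16 (R 4.3.3): libraries with at least 10000 counts on it, filterByExpr, TMM factors, the quasi-likelihood test (two-sided) and Benjamini-Hochberg adjustment within the genome at 0.05. Stable RNA features (5 in X. muris) were left out. Shares, features in 10000 counts and the percent on the 5 most counted features were compared by two-sided permutation tests of means (100000 resamples, exact with fewer than 10 libraries in a group). The fits were tested on simulated data with up to 200 genes changed. Simulated 2-fold changes were called in the right direction for 77% in F. rodentium, 65% in D. muris and 54.2% in X. muris. In Acetatifactor it was 10.3% and in L.bacterium335 6.17%. For 4-fold changes it was 98%, 99%, 93.6%, 48.3% and 66.7%, in the same order. Alternatives covered RLE factors, DESeq2 1.42.0, filters, library minimums, the other diets in the fit, library numbers, depth and leaving out each library.

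Named genes were, per genome, called genes of at least median level, called members of 30 gene lists, the 3 smallest p-values each way where these were fewer than 6, the most expressed member of lists without a call and the 5 most counted symbols (153 in all, of which the text gives a selection). The libraries, lists and rules were chosen with earlier results of these data known.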

Additional observations from a re-analysis of the deposited data

Results flagged for a closer look

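Among the groups of 7 to 10 libraries, 5 values stood apart from the others by Dixon's criterion, which flags about 1 in 20 groups by chance. At 0.5% broccoli, replicate 2 had the highest share of Alistipes, 0.261% of the 6-genome counts with the next library at 0.125%, and the highest share of X. muris, 10.7% with the next at 5.59%. In F. rodentium, deaD reached 155 CPM in replicate 5 at 1% (from 5 counts), with the next library at 62.2 CPM. The feature gene:ENSB:f9ceGArSypMPrOm reached 6536 CPM in replicate 1 at 1%, with the next at 3278 CPM, and gene:ENSB:vzcduYxB1sBBAGO reached 112 CPM in replicate 1 at 0.5%, with the next at 65.5 CPM.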

How the results depend on the processing

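No paired analysis was possible because the replicate numbers follow accession order and pair no libraries. No result past its threshold reversed its direction in the alternatives run, whereas 64 of the 174 results, all of them short of it, changed sign in at least 1, and mglB of F. rodentium kept its call in all 31. Depth kept Alistipes from being fitted. Elsewhere the part of depth in the absence of calls was not tested. In simulated data, 10.3% of 2-fold changes were recovered in Acetatifactor and 6.17% in L.bacterium335, against 77% in F. rodentium. The absence of calls in Acetatifactor and L.bacterium335 therefore does not show the absence of such changes. The cause of each change below was not tested.

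Without the libraries numbered 76 to 81, the share differences were -32.2 percentage points for F. rodentium and 8.21 for Acetatifactor (permutation test, adjusted p = 0.0663 each). The Acetatifactor difference was 0.49 on a centred log-ratio scale (adjusted p = 0.381) and 1.46 with F. rodentium left out of the total (adjusted p = 0.895). The F. rodentium difference in medians was -24.04 (adjusted p = 0.0569). Leaving out single libraries moved the share differences from -34.2 to -25.2 for F. rodentium, 5.35 to 8.25 for Acetatifactor, 12.8 to 19.7 for L.bacterium335, 2.01 to 3.73 for X. muris and 0.0649 to 0.130 for Alistipes. It moved the features in 10000 counts from 281 to 433 in Acetatifactor and 195 to 372 in X. muris, and the percent on the 5 most counted features of X. muris from -18.5 to -10.5.

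The 9 calls in F. rodentium became 53 with DESeq2 (5 of the 9 kept), 14 without the low-count filter (9 kept), 5 with all 4 diets in the fit, 1 without libraries 76 to 81, 4 with the library number series as a term and 5 with the library total as a covariate, and 5 to 15 with single libraries left out (5 without replicate 4 or 6 at 0.5%, 15 without replicate 6 at 1%). The 0 calls in Acetatifactor became 1 with DESeq2, 4 without the filter, 2 with all 4 diets, 2 without libraries 76 to 81 and 1 with the number series, and 0 to 2 with single libraries left out (replicates 1 and 9 at 0.5%, 4 and 9 at 1%). Those in L.bacterium335 became 2 with DESeq2, 33 without the filter, 1 at a minimum of 50000 counts, 2 with all 4 diets and 1 without libraries 76 to 81. Those in X. muris became 1 each without the filter, without a library minimum, at a minimum of 50000 counts and with the library total as a covariate, and 0 to 1 with single libraries left out (replicates 2, 3 and 8 at 0.5%, 1, 5 and 6 at 1%). Those in D. muris ranged from 0 to 1 (replicate 6 at 1%).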
